A study of Bassia scoparia with 27 samples.

Results

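The transcripts described here are 150 kochia (Bassia scoparia) messages whose mean stood above the untreated mean in every line sampled. This held at both times studied, 3 and 10 hours after treatment (HAT) with the herbicide fluroxypyr. The study did not name them one by one. They belong to 145 gene loci and were taken from 45517 transcripts in all. Measured values chose them: on log2 of the normalized count plus 1, the mean at 3 HAT had to exceed the untreated mean by over 1 in all 3 lines, the difference at 10 HAT had to be at least 0.5 times that at 3 HAT, and the mean count at 10 HAT had to reach 50 in each line. These limits were met by 517 transcripts, of which 50 are named in the study and were dropped, and the 150 of the remaining 467 with the largest lowest difference over lines and times were kept. The differences from untreated are therefore given as descriptions, without a test.

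Apical tissue came from the fluroxypyr-resistant line Flur-R (labelled B3), which was bred by selecting and intercrossing survivors of a field population over several generations, and from the susceptible lines 9425, which resists dicamba, and J01-S. Plants of each line were sprayed with water and sampled (untreated), and on the next day the same plants were sprayed with fluroxypyr at the field rate and sampled at 3 and 10 HAT. Flur-R has 3 untreated libraries, 3 at 3 HAT and 4 at 10 HAT, 9425 has 3, 3 and 4, and J01-S has 2, 2 and 3, each made from 1 plant. No tissue was taken at 3 or 10 h from plants without herbicide, so the herbicide, the hour of sampling and repeated sampling cannot be told apart in any difference from untreated, and fewer cells of a type cannot be told apart from less RNA per cell. Some plants of Flur-R and J01-S were in early flower at the time, and they are not identified among the libraries.

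Fluroxypyr is a synthetic auxin. Auxin is bound by receptors of the TIR1/AFB family together with Aux/IAA repressors, the repressors are degraded, and auxin response factors then activate their target genes. The best known early targets are the Aux/IAA genes themselves, GH3 genes, whose enzymes conjugate auxin to amino acids, SAUR genes and ACS genes, whose enzymes make the precursor of ethylene. Under an auxin herbicide the response is prolonged, and ethylene and abscisic acid are made in its wake.

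The gene models of assembly version 2 carry no descriptions, and so none of the 150 transcripts can be given a name or a role here. Of 11 auxin response genes that the study describes, and which are not among the 150 because they are named there, 9 met the same limits. They were GH3.2, ACS, IAA15, IAA29, an IAA1-related gene, the brassinosteroid-inactivating CYP734A1, ERF13, a PTI6-related ethylene response factor and a CEP13/CEP14 peptide precursor. The AP2/ERF factor Bs.00g418990.m01 and the DREB1A-related Bs.00g419000.m01 did not meet them. Their mean log2 differences from untreated in Flur-R were 5.46 and 8.86 at 3 HAT and 1.02 and 0.34 at 10 HAT. In 9425 they were 2.85 and 3.27 and then 0.47 and -1.07. In J01-S they were 5.60 and 9.56 and then 2.43 and 3.25.

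Library totals ranged from 59.4 to 76.9 M normalized counts before treatment, from 60.0 to 75.6 M at 3 HAT and from 50.9 to 61.3 M at 10 HAT. The labels call the tissue meristem, while the protocol speaks of young leaves, and leaf transcripts were abundant. The chlorophyll a/b-binding protein transcript Bs.00g240870.m01 lay between 301017 and 558111 in untreated libraries, between 87434 and 185866 at 3 HAT and between 2653 and 9825 at 10 HAT, and the other 3 leaf markers on the list were also lower in every 10 HAT library than in any untreated one. At 3 HAT, 1 of them, the photosystem I transcript Bs.00g115330.m01, overlapped with untreated (12851 to 47369 against 44955 to 94697). The leaf markers thus moved opposite to the 150 transcripts, and their part in those values was not tested. Libraries of 9425 and J01-S at 10 HAT labelled replicate 3 stood apart. Over 1927 transcripts that separated 9425 from J01-S at the other times, the 10 HAT libraries of 9425 replicates 1, 2 and 4 were nearer 9425 at 92.0, 95.6 and 91.8% and that of J01-S replicate 4 at 8.20%, whereas replicate 3 of 9425 was nearer 9425 at 39.1%, replicate 3 of J01-S at 93.9% and replicate 2 of J01-S at 31.1%. Both libraries labelled replicate 3 were left out of the selection and of the main fit, which leaves 25 libraries, and none of the 150 transcripts is among the 1927.

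In the 25 libraries the 150 transcripts together took 0.219 to 0.442% of a library's normalized counts before treatment, 1.07 to 2.01% at 3 HAT and 2.12 to 3.26% at 10 HAT. The median transcript had a mean over untreated libraries of 135.7 normalized counts, 1252 at 3 HAT and 1353 at 10 HAT, averaged over libraries, against 262 before treatment, 264.1 at 3 HAT and 252.4 at 10 HAT for the median of the 28945 transcripts tested in the series. The set thus began below the typical transcript and stood above it at both later times, a course that the selection by large differences favours. Means before treatment spanned 1.62 to 40174 counts, and 22 of the 150 had at least 1 untreated library at 0.

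**Figure D1:**
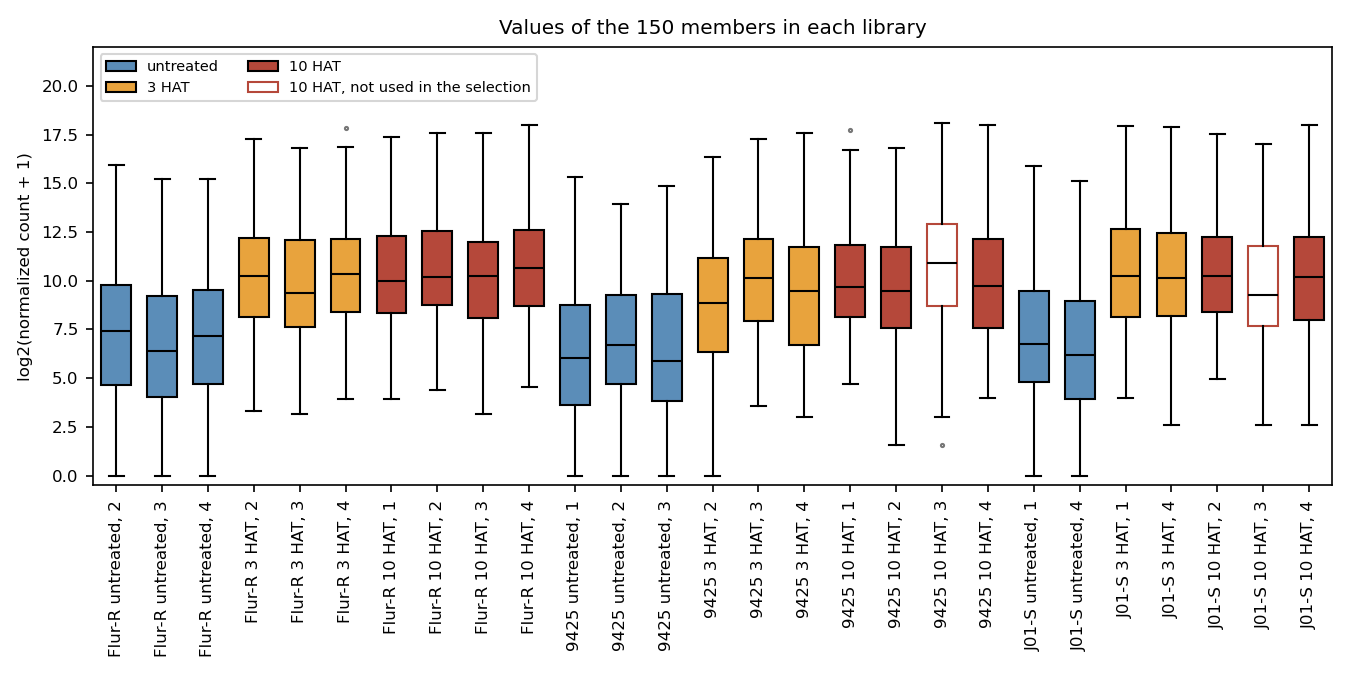
Box plots of the 150 transcripts in each of the 27 libraries, as log2 of the normalized count plus 1 (box, quartiles; line, median; whiskers, 1.5 times the interquartile range; dots, transcripts beyond). Library medians lay between 5.89 and 7.41 in untreated plants, between 8.87 and 10.35 at 3 HAT and between 9.28 and 10.89 at 10 HAT, with the open boxes marking the libraries not used in the selection.

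The medians of the 3 lines lay closer together at 10 HAT than at 3 HAT. At 3 HAT the median difference from untreated was 2.88 for Flur-R (7.36-fold, range 1.72 to 7.18), 2.75 for 9425 (6.73-fold, range 1.75 to 6.45) and 3.40 for J01-S (10.57-fold, range 1.76 to 8.16). At 10 HAT it was 3.14 for Flur-R (8.84-fold), 3.15 for 9425 (8.88-fold) and 3.21 for J01-S (9.27-fold). Taken library by library, the SD of the set's median difference at 3 HAT was 0.27 for Flur-R (n = 3), 0.61 for 9425 (n = 3) and 0.13 for J01-S (n = 2). The median of all tested transcripts was 0.00 at 3 HAT and 0.03 to 0.05 at 10 HAT, in each line.

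How cleanly single transcripts separated from untreated is shown by the number whose treated libraries all lay above all untreated libraries of the line. At 3 HAT these were 133 of 150 for Flur-R, 120 for 9425 and 147 for J01-S, against 11.8, 11.4 and 22.1% of all tested transcripts. At 10 HAT they were 141, 137 and 146, against 14.6, 18.9 and 26.5%. Nothing is read from the contrast with all transcripts, since the selection used these same differences. Across lines, 64 of the 150 had every one of the 17 treated libraries above every one of the 8 untreated libraries, which held for 423 of all tested transcripts (1.46%).

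Plants could be followed one by one where the same plant had been sampled before and after treatment. The selection used these same libraries, so high counts follow from it and only the differences between plants are described. In Flur-R, between 148 and 150 of the 150 transcripts were higher than in the same untreated plant, in all 3 such plants at both times, and between 145 and 150 were higher by over 1 on the log2 scale. Plants 1 and 3 of 9425 and plants 1 and 4 of J01-S had all 150 higher at each time with both libraries among the 25 in use. The 10 HAT library labelled 9425 replicate 3 was not among them, so plant 3 was followed at 3 HAT only. Plant 2 of 9425 stood apart, with 135 higher and 112 higher by over 1 at 3 HAT (median 2.04) and 143 and 136 at 10 HAT (median 2.86). Its 3 HAT library was the lowest of the 9425 libraries at that time for 102 of the 150 transcripts. The plants also differed before treatment: replicate 2 of untreated Flur-R was the highest of its 3 libraries for 85 transcripts (library median 7.41), and replicate 3 was the lowest for 71 (6.37).

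The largest differences were found for 10 transcripts, ranked by their lowest difference over lines and times. Bs.00g297970.m01, on chromosome 9 at positions 2118976 to 2121444 (minus strand, 3 exons), headed them. Its normalized counts in untreated libraries were 25, 7 and 109 for Flur-R, 18, 25 and 6 for 9425, and 65 and 17 for J01-S. At 3 HAT they were 4230, 2150 and 7706 for Flur-R, 456, 3534 and 1421 for 9425, and 9946 and 4867 for J01-S. At 10 HAT they were 605, 2159, 1546 and 5213 for Flur-R, 195, 496 and 778 for 9425, and 4819 and 5948 for J01-S. All treated libraries lay above all untreated ones, and 3 HAT overlapped 10 HAT in each line. The log2 differences were 7.18, 6.45 and 7.66 at 3 HAT and 5.99, 4.81 and 7.28 at 10 HAT for Flur-R, 9425 and J01-S.

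Bs.00g357510.m01, a single-exon transcript of 231 coding bases on chromosome 5 (positions 3199814 to 3200044, minus strand), was second. Untreated plants held 21, 3 and 2 counts in Flur-R, 3, 3 and 2 for 9425, and 12 and 16 for J01-S. At 3 HAT the counts were 1259, 811 and 336 for Flur-R, 150, 36 and 128 for 9425, and 2094 and 1037 for J01-S, so that every 9425 library was below every library of the other lines. At 10 HAT they were 1671, 1097, 472 and 635 for Flur-R, 3121, 182 and 525 for 9425, and 2866 and 2143 for J01-S, and the lines overlapped. Its next neighbour 1655 bases away, Bs.00g357520.m01, is described in the study as a late embryogenesis abundant (LEA) protein gene, a family known for protecting cells that lose water, and had log2 differences of 4.33, 4.62 and 4.55 at 3 HAT for Flur-R, 9425 and J01-S.

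The other 8 of the 10 were lower or less even between plants, and their ranges are given over the 25 libraries in use. Bs.00g242950.m01 was at 22 to 494 counts in untreated plants, at 1178 to 10792 at 3 HAT and at 838 to 1923 at 10 HAT. The left-out library labelled 9425 replicate 3 held 8933 counts of it, and that labelled J01-S replicate 3 held 1062. Bs.00g286980.m01 went from 1 to 18 counts before treatment to 25 to 458 at 3 HAT and 105 to 567 at 10 HAT. Bs.00g301070.m01, with 12 to 136 counts before treatment, reached 219 to 1251 at 3 HAT and 710 to 2331 at 10 HAT. For these 3, the treated libraries lay above all untreated ones. Bs.00g526750.m01 was at 10 to 165 counts before treatment, at 85 to 2588 at 3 HAT and at 236 to 11329 at 10 HAT, the highest being replicate 2 of Flur-R. Bs.00g235380.m01, Bs.00g130680.m01 and Bs.00g537270.m01 had untreated libraries that overlapped treated ones, with at most 528, 34 and 11 counts before treatment and at least 479, 21 and 8 at 3 HAT.

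Bs.00g469670.m01, the eighth of the 10, split the plants of a line. At 10 HAT its counts were 59, 30, 10768 and 3469 in replicates 1 to 4 of Flur-R, 8524, 11662 and 5064 for 9425, and 30 and 84 for J01-S, from 0 to 63 before treatment. Both Flur-R plants with these high counts had 544 and 999 at 3 HAT, and the Flur-R plant sampled with 30 counts had 14. Of the libraries left out, that labelled 9425 held 379 counts and that labelled J01-S held 5727. The difference between 9425 and J01-S at 10 HAT was 7.28 (SE 2.12) and did not pass the limma test (adjusted p = 0.0518).

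By level, Bs.00g055920.m01 led the set. This gene of 21 exons on chromosome 8 (positions 95373991 to 95387632, plus strand) had 62257, 38395 and 37830 counts in untreated Flur-R, 41639, 15791 and 29485 for 9425, and 59974 and 36018 for J01-S. At 3 HAT it had 158385, 113802 and 231063 for Flur-R, 82278, 161457 and 195708 for 9425, and 251115 and 243256 for J01-S. At 10 HAT it had 167720, 196982, 168038 and 258473 for Flur-R, 217894, 117059 and 263072 for 9425, and 192991 and 258131 for J01-S. Every treated library was above every untreated one, and the lines overlapped at each time, except that both J01-S libraries at 3 HAT were above those of the other lines. Its mean over lines at 10 HAT, 207569 counts, was about as large as the sum of the next pair, the isoforms Bs.00g204040.m01 (100951) and Bs.00g204040.m02 (102807), which share 42 exons and their reads, so that their separate levels are uncertain. Bs.00g108400.m01 (91531) and Bs.00g306140.m01 (84391) followed. In all 5, log2 differences were 1.84 to 4.60, and the counts are not corrected for length, so they do not rank the genes by molecules.

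At the limit of the selection, the last kept were Bs.00g006400.m01 (lowest difference 1.73), Bs.00g528470.m01 (1.72) and Bs.00g082790.m01 (1.72). The first not kept were Bs.00g082790.m02 (1.72), an isoform of the last one kept, Bs.00g009760.m01 (1.71) and Bs.00g348800.m01 (1.71). The edge of the set is a rank and not a gap in the values.

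**Figure D2:**
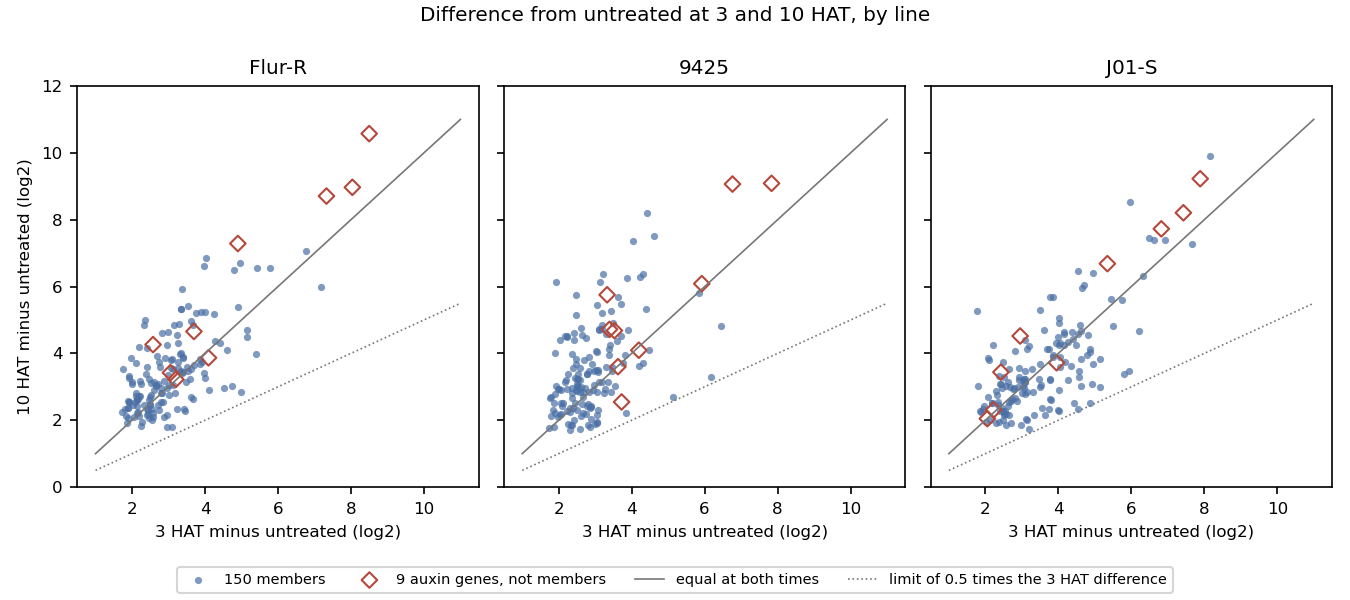
Difference from untreated at 10 HAT (vertical, log2) against that at 3 HAT (horizontal, log2) for the 150 transcripts in each line, with 9 auxin response genes that met the same limits but are not among the 150. The line marks equal differences and the dotted line the limit of 0.5 times the 3 HAT difference; 99 points lay above the line of equality in Flur-R, 106 for 9425 and 77 for J01-S.

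Between 3 and 10 HAT the 150 transcripts went different ways. The median change from 3 to 10 HAT was 0.32 on the log2 scale in Flur-R (range -2.16 to 2.84), 0.46 for 9425 (-2.88 to 4.21) and 0.05 for J01-S (-2.46 to 3.50). Higher means at 10 HAT than at 3 HAT were found in all 3 lines for 58 transcripts, lower means in all 3 lines for 22, and for 70 the lines differed in direction. The 3 HAT difference was largest in J01-S for 97 of the 150, in 9425 for 27 and in Flur-R for 26, while at 10 HAT the largest difference was in J01-S for 56, in 9425 for 50 and in Flur-R for 44. Only 12 were higher at 10 HAT by over 1 in all 3 lines and 2 were lower by over 1 in all 3.

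Of those higher at 10 HAT, Bs.00g261150.m01 (chromosome 7, positions 25697671 to 25699011) had the largest mean change from 3 to 10 HAT, 2.62. It was at 1 to 46 counts in untreated plants. At 3 HAT it held 124, 64 and 191 counts in Flur-R, 4, 145 and 226 for 9425, and 413 and 1183 for J01-S, and at 10 HAT 566, 1193, 220 and 3187 for Flur-R, 580, 157 and 1620 for 9425, and 1963 and 2855 for J01-S. In the 25 libraries the times did not overlap in Flur-R and J01-S and overlapped in 9425, whose plant 2 had 46 counts untreated and 4 at 3 HAT. The left-out library labelled 9425 replicate 3 held 3461 counts, and that labelled J01-S replicate 3 held 453. Bs.00g176490.m01 (mean change 2.4) had 0 to 12 counts untreated, 1 to 45 at 3 HAT and 14 to 143 at 10 HAT, and both untreated J01-S libraries were at 0. Bs.00g233570.m01 (2.37) had 0 to 7, 2 to 114 and 43 to 209 counts at the 3 times.

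The opposite course was clearest in Bs.00g142570.m01 (chromosome 1, positions 18931070 to 18944599), whose mean change from 3 to 10 HAT was -2.34. Its counts at 3 HAT were 10306, 10746 and 1614 for Flur-R, 1104, 4202 and 684 for 9425, and 12383 and 7324 for J01-S. At 10 HAT they were 738, 3073, 1944 and 574 for Flur-R, 263, 304 and 250 for 9425, and 3358 and 943 for J01-S, still above the untreated counts of 104 to 318, 13 to 166, and 89 to 320 in these lines. In the 25 libraries both times were separate in 9425 and J01-S and overlapped in Flur-R through plant 4. The left-out library labelled 9425 replicate 3 held 1808 counts, and that labelled J01-S replicate 3 held 456. Bs.00g428810.m01 (-1.65) and Bs.00g288740.m01 (-1.54) came next. The second of these was among the most uneven, with 27702 counts in 1 J01-S library at 3 HAT and 1215 in the other.

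Replicates of the set spread more widely than those of other transcripts. The median within-group SD on the log2 scale was 0.90 in untreated Flur-R against 0.38 for all tested transcripts, 0.77 against 0.43 in untreated 9425 and 0.67 against 0.34 in untreated J01-S. At 10 HAT it was 0.57 against 0.43, 0.51 against 0.33 and 0.39 against 0.32. The largest mean within-group SD, 2.39, belonged to Bs.00g469430.m01, with 0, 24 and 0 counts in untreated 9425 and 14, 1 and 194 in untreated Flur-R, and the next, 2.19, to Bs.00g288740.m01.

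**Figure D3:**
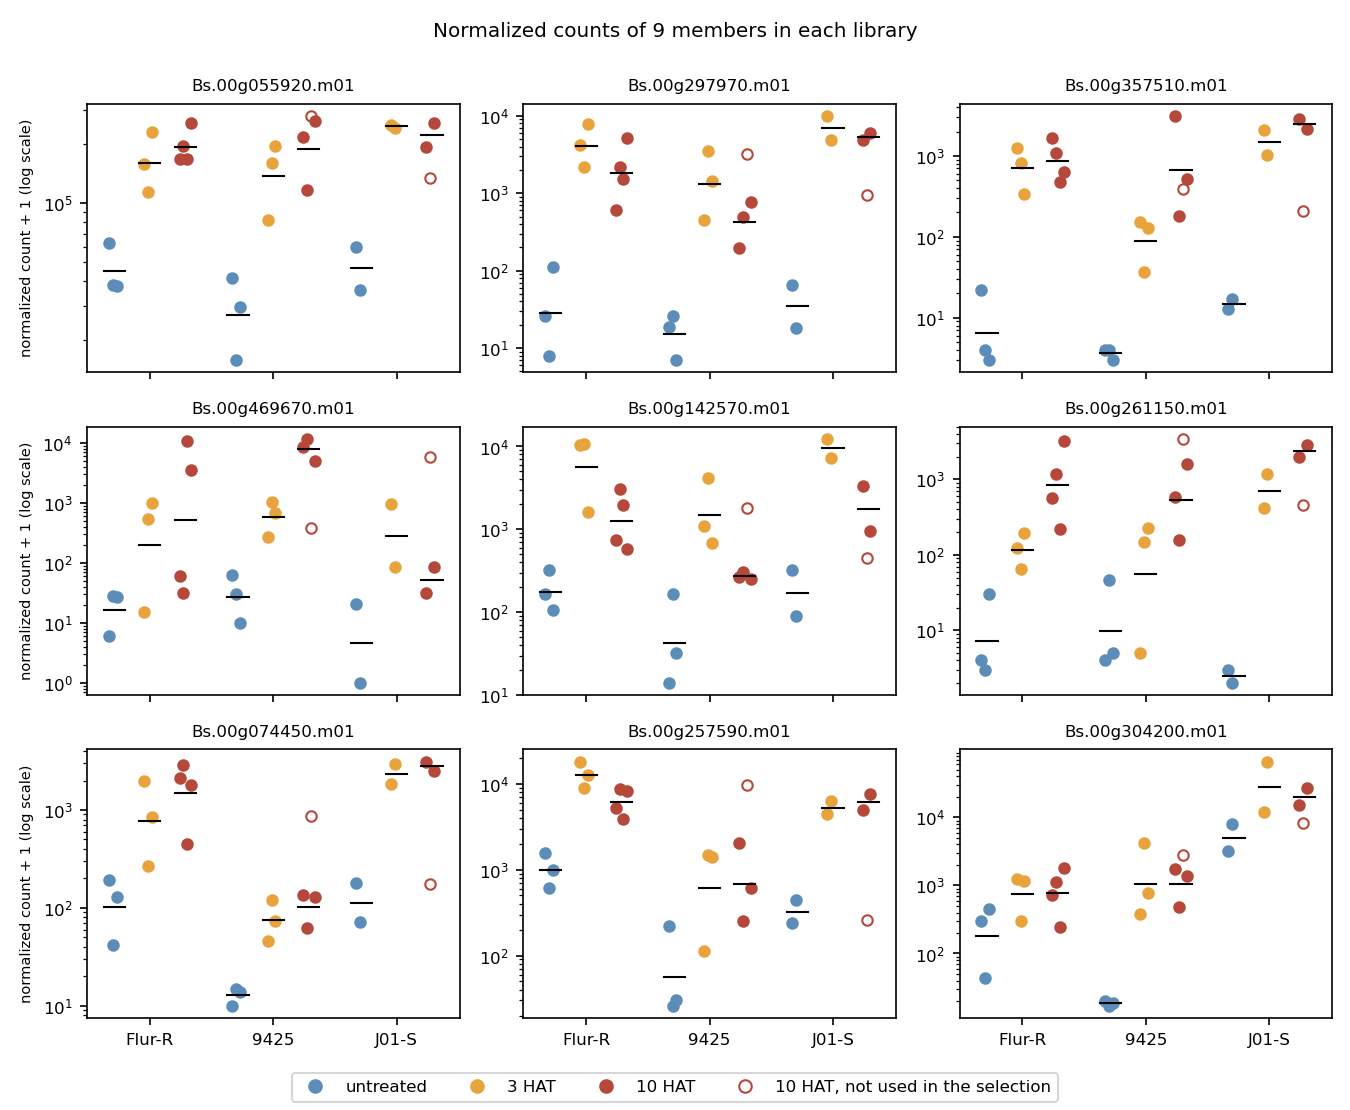
Normalized count plus 1 (log scale) of 9 of the 150 transcripts in every library, by line and time, with a bar at the mean of the log values; open circles are the libraries not used in the selection. The panels were chosen after the values were seen, to show high levels (Bs.00g055920.m01), large differences (Bs.00g297970.m01, Bs.00g357510.m01), plants of a line that differ (Bs.00g469670.m01), the 2 courses after 3 HAT (Bs.00g142570.m01, Bs.00g261150.m01) and lines that differ (Bs.00g074450.m01, Bs.00g257590.m01, Bs.00g304200.m01).

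The libraries left out at 10 HAT give values that the choice of the 150 did not use, although the untreated libraries they are set against were used. In the library labelled 9425 replicate 3, 136 of the 150 transcripts were above every untreated library of the 3 lines, against 24.3% of all tested transcripts, and in that labelled J01-S replicate 3 there were 125, against 20.9%. Both libraries had 118 of the 150 above, and 7 were above in neither. The median difference was 3.83 against the untreated 9425 mean and 3.80 against that of J01-S in the first library, and 2.94 and 2.75 in the second. The level of the first was the highest of any library, with a median of 10.89 on the log2 scale.

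Differences between lines were not used to choose the 150 and were tested with limma at each time, with adjustment over all 28945 transcripts. Calls needed an adjusted p below 0.05 and a difference of more than 0.5 on the log2 scale. In all, 25 of the 150 differed in at least 1 of 9 comparisons, in 49 calls, and 125 in none. The shares called were close to or below those of all transcripts in most comparisons. For Flur-R against 9425, 8 of the 150 (5.33%) were called before treatment, 3 (2.00%) at 3 HAT and 7 (4.67%) at 10 HAT, against 5.3, 4.96 and 7.01% of all transcripts. For Flur-R against J01-S, 2 (1.33%), 3 (2.00%) and 2 (1.33%) were called, against 3.07, 4.94 and 3.9%. Between the susceptible lines, 5 (3.33%), 13 (8.67%) and 6 (4.00%) were called, against 5.72, 7.72 and 5.49%. These calls rest on few plants: 43 of the 49 were lost without 1 of the libraries compared, 6 were not, and 16 held when both doubtful libraries were put back. In simulated data for untreated Flur-R and 9425, a log2 difference of 1 was recovered for 13.2% of changed transcripts. A difference of 2 was recovered for 45.5% and 1 of 4 for 74.2%. Those transcripts were drawn from all tested ones, with independent libraries and levels set to each transcript's mean over all libraries. Fewer transcripts were changed (68, 66 and 66 at the 3 sizes) than the 1533 called in the data for that comparison. The adjustment was therefore stricter in the simulation, and recovery in the data may be higher for that reason. The 150 spread more widely (median SD 0.90 against 0.38 in untreated Flur-R), so recovery among them may be lower. The effect of that spread on the calls was not tested. Most transcripts without a call have thus not been shown to be alike in the lines.

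All 18 calls of Flur-R against 9425 were higher in Flur-R, and 20 of 24 between the susceptible lines were lower in 9425. Among all transcripts called, 1155 were higher and 378 lower in untreated Flur-R than in 9425, 1088 and 348 at 3 HAT, and 1244 and 786 at 10 HAT. Among those called between 9425 and J01-S, 966 were lower and 690 higher in 9425 before treatment, 1298 and 936 at 3 HAT, and 898 and 690 at 10 HAT. At 3 HAT the median difference of the 150 between 9425 and J01-S was -0.75, against -0.01 for all transcripts, with 12 called lower and 1 higher in 9425. Without replicate 1 or replicate 4 of J01-S at 3 HAT, this count of 13 fell to 3 and 6, and without replicate 2 or replicate 4 of 9425 at that time to 6 and 8. Without that replicate 2, whose library was the lowest of its line for 102 of the 150, the median difference was -0.48.

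Bs.00g074450.m01 (chromosome 4, positions 18492832 to 18494901, minus strand) was low in 9425 at all times. Its counts were 9, 14 and 13 in untreated 9425, 45, 120 and 73 at 3 HAT, and 133, 61 and 128 at 10 HAT. Flur-R had 193, 41 and 128 untreated, 1965, 269 and 850 at 3 HAT, and 2106, 2882, 450 and 1793 at 10 HAT, and J01-S had 179 and 70, 1841 and 2985, and 3120 and 2524. At no time did 9425 overlap the other lines. Flur-R exceeded 9425 by 2.99 (SE 0.72, adjusted p = 0.0176) before treatment, 3.37 (SE 0.72, adjusted p = 0.00722) at 3 HAT and 3.86 (SE 0.67, adjusted p = 0.00094) at 10 HAT in limma. The 10 HAT call held without each library in turn (adjusted p at most 0.00958), as did those of 9425 against J01-S at 3 and 10 HAT, with differences of -4.98 and -4.78. The other calls did not, with adjusted p = 0.125 before treatment without Flur-R replicate 2. The library labelled 9425 replicate 3 held 862 counts and that labelled J01-S replicate 3 held 173, and with both in the fit the 10 HAT difference between 9425 and J01-S was -2.67 (adjusted p = 0.486).

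In the other direction, Bs.00g304200.m01 (chromosome 9, positions 7389811 to 7390539, single exon) was high in J01-S. Untreated J01-S held 3192 and 7923 counts, more than any untreated library of Flur-R (299, 43 and 455) or 9425 (19, 16 and 18). At 3 HAT the counts were 11908 and 66113 for J01-S, 1236, 298 and 1181 for Flur-R, and 378, 4148 and 768 for 9425, and at 10 HAT 15144 and 27040, 727, 1130, 246 and 1823, and 1741, 480 and 1364. J01-S did not overlap either line at any time. Untreated 9425 was below untreated J01-S by a log2 difference of -8.08 (SE 1.09, limma adjusted p = 7.29e-05), the largest called difference with a call that held without each library (adjusted p at most 0.00421). It was also lower in Flur-R than in J01-S by -4.79, -5.21 and -4.70 at the 3 times (adjusted p = 0.0155, 0.00682 and 0.0119), and without J01-S replicate 4 these adjusted p-values were 0.152, 0.13 and 0.142.

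Bs.00g257590.m01 (chromosome 7, positions 19609229 to 19624630, 15 exons) was higher in Flur-R than in 9425 at all times in the 25 libraries. Flur-R had 1574, 611 and 998 counts before treatment, 18043, 8832 and 12514 at 3 HAT and 5197, 8597, 3895 and 8123 at 10 HAT. In 9425 the counts were 221, 25 and 29, then 111, 1460 and 1407, then 2055, 249 and 606, and in the 25 libraries both lines were apart at each time. The library labelled 9425 replicate 3 at 10 HAT, which was left out, held 9661 counts, more than any 10 HAT library of Flur-R, and that labelled J01-S replicate 3 held 258. The differences were 4.15, 4.36 and 3.18 (limma adjusted p = 0.00873, 0.00562 and 0.0268), and that at 3 HAT held without each library in turn (adjusted p at most 0.0406), while without replicate 2 of Flur-R the untreated adjusted p was 0.0605 and without replicate 2 of 9425 that at 10 HAT was 0.148. With both doubtful libraries in the fit none of the 3 passed (limma adjusted p = 0.072, 0.0592 and 0.268). J01-S, with 236 and 438, 4382 and 6345, and 4922 and 7608 counts, lay between them or beside Flur-R, and its difference from Flur-R passed the test at no time.

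Bs.00g311680.m01 (chromosome 9, positions 16963065 to 16963961, single exon) differed less but more evenly. At 10 HAT it was at 39034, 43326, 27216 and 30178 counts in Flur-R and at 14264, 12902 and 11359 for 9425, a difference of 1.42 (SE 0.24, limma adjusted p = 0.000727) that held without each library (adjusted p at most 0.00673) and with both doubtful libraries (1.14, adjusted p = 0.0262). At 3 HAT Flur-R exceeded 9425 by 0.97 (adjusted p = 0.0335, and 0.212 without Flur-R replicate 2). J01-S, with 21164 and 25447 counts at 10 HAT, was not called against either line at that time.

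Before treatment, 1 of the 150 was called higher in Flur-R against each of the susceptible lines. This was Bs.00g241570.m01 (chromosome 7, positions 2054809 to 2056422, single exon), with 14, 7 and 11 counts in Flur-R, 0, 4 and 2 for 9425, and 2 and 0 for J01-S. Its differences were 2.2 (SE 0.63, limma adjusted p = 0.0476) and 2.70 (SE 0.70, adjusted p = 0.0394) on low counts, and without Flur-R replicate 2 the adjusted p-values were 0.21 and 0.137. At 10 HAT it was at 269, 231, 360 and 487 counts in Flur-R, 129, 69 and 94 for 9425, and 390 and 1044 for J01-S, and Flur-R was not called against either line. Untreated Flur-R also exceeded 9425 in Bs.00g177390.m01 (3.87, adjusted p = 0.0387) and in Bs.00g536820.m01 (3.59, adjusted p = 0.0223), of which the second stood at 2994, 607 and 1351 against 218, 84 and 74 counts. Without Flur-R replicate 2, limma called 0 of the 150 between untreated Flur-R and 9425, and 22 were at an unadjusted p under 0.05.

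Bs.00g135270.m01 was low in treated 9425. It had 9, 37 and 48 counts there at 3 HAT and 65, 19 and 87 at 10 HAT, against 310, 109 and 1280 and then 854, 2477, 313 and 2430 for Flur-R, and 1560 and 308 and then 1210 and 1502 for J01-S, with no overlap. At 10 HAT Flur-R was higher than 9425 by 4.53 (SE 1.00, limma adjusted p = 0.00741; 0.0539 without 9425 replicate 2). The library labelled 9425 replicate 3 held 7362 counts and that labelled J01-S replicate 3 held 19, and with both in the fit the difference was 2.72 (adjusted p = 0.346).

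Bs.00g137920.m01 was low in treated J01-S, with 1135 and 299 counts at 3 HAT and 443 and 57 at 10 HAT. Untreated J01-S held 72 and 4, which overlapped Flur-R (114, 96 and 58) and lay below 9425 (148, 480 and 150). Flur-R had 1356, 1696, 3103 and 1233 at 10 HAT, higher than J01-S by 3.42 (SE 0.90, limma adjusted p = 0.038). Without J01-S replicate 4 the difference was 1.96. The left-out libraries labelled 9425 and J01-S replicate 3 held 1455 and 1428 counts. With both in the fit the difference was 2.37 (limma adjusted p = 0.167). Bs.00g310530.m01 was at 6153, 2278 and 3923 counts in Flur-R at 3 HAT and at 22 and 5 for J01-S, a difference of 8.34 (SE 2.25, adjusted p = 0.0373) that was lost without any 1 of the 5 libraries (adjusted p from 0.0535 to 0.209). Single plants of the other lines were also high in it: 9425 replicate 4 had 3564 counts at 3 HAT and 5559 at 10 HAT where the other 9425 libraries had 15 to 84, and J01-S replicate 2 had 2931 at 10 HAT where replicate 4 had 5. Bs.00g528470.m01 was lower in Flur-R than in J01-S at 3 HAT by -2.27 (adjusted p = 0.044, and 0.432 without J01-S replicate 4).

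**Figure D4:**
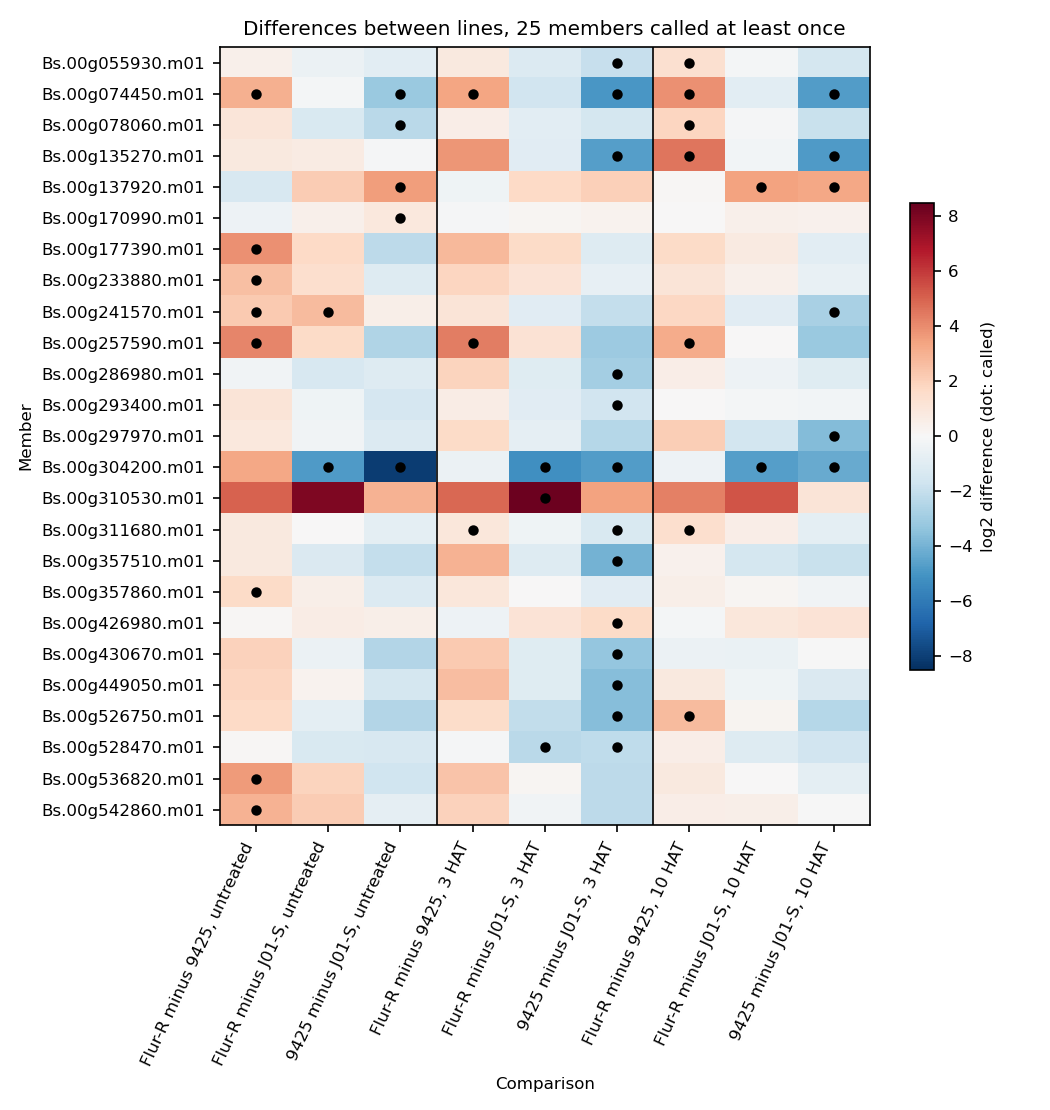
Log2 differences between lines (colour, scale at right) for the 25 of 150 transcripts called at least once, in 9 comparisons grouped by time; dots mark the 49 calls. Dots in the columns of Flur-R minus 9425 are all on red cells (higher in Flur-R), and Bs.00g304200.m01 is blue in all 6 columns with J01-S.

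The gene models give features that the selection did not use. The median transcript of the 150 had 3 exons against 5 for all tested transcripts, and 28 of the 150 (18.7%) had a single exon against 11.7%. Coding length was 996 against 924 bases in the median and the genomic span 2651 against 3452 bases, in models of which 99.96% have a coding length that is a multiple of 3. Loci with several isoforms gave 7.33% of the 150 and 13.3% of all tested transcripts. By chromosome, 24 (16%) lay on chromosome 6, which holds 11.9% of the tested transcripts, and 10 (6.67%) on chromosome 5, which holds 12.3%. These values are descriptions, and no test was made of the set against the rest.

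In the genome, 25 of the 145 loci formed 11 groups of neighbours, with at most 4 other loci and 200 kb between one and the next, 8 groups of 2 and 3 groups of 3. Bs.00g171840.m01, Bs.00g171870.m01 and Bs.00g171890.m01 lie within chromosome 1 from position 82523617 to 82641929 on the minus strand, and their log2 values over the 25 libraries followed each other with r of 0.996 between the first and the second and 1.000 between the second and the third. Counts of the last pair were nearly the same throughout, as in untreated 9425 (43, 2542 and 37 against 43, 2526 and 37), so reads may have been split between near-identical copies and their separate levels are uncertain. In that line the untreated library of replicate 2 was above both later libraries of the same plant, which for Bs.00g171840.m01 were 3125 counts untreated, 2269 at 3 HAT and 702 at 10 HAT. Elsewhere untreated counts of Bs.00g171840.m01 were 4 to 234 and treated counts 213 to 929.

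On chromosome 6, Bs.00g532940.m01, Bs.00g532950.m01 and Bs.00g532960.m01 lie between positions 99831223 and 99839119 and were among the steadiest, with mean within-group SDs of 0.30, 0.37 and 0.43. Bs.00g532950.m01 had 215 to 590 counts in untreated libraries, 1559 to 2572 at 3 HAT and 1233 to 3646 at 10 HAT, with no overlap, and Bs.00g532960.m01 lies within it on the opposite strand. Bs.00g045070.m01 likewise lies within Bs.00g045060.m01 on chromosome 8, on the same strand. The counting is not stated to use strand, so the reads of overlapping models cannot be told apart. Bs.00g449050.m01 and Bs.00g449100.m01 on chromosome 2, each with 486 coding bases and 2 exons, had r of 0.97, and Bs.00g469430.m01 and Bs.00g469440.m01, with no locus between them, had r of 0.96.

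The highest transcript of the set also has a neighbour in it. Bs.00g055930.m01 is a single-exon gene on the minus strand, 682 bases beyond the end of Bs.00g055920.m01. It followed that neighbour with r of 0.92, at a mean of 5805 counts at 10 HAT. It differed between lines where its neighbour was not called: it was lower in 9425 than in J01-S at 3 HAT by -1.99 (SE 0.46, limma adjusted p = 0.0119, and 0.152 without J01-S replicate 1) and higher in Flur-R than in 9425 at 10 HAT by 1.33 (adjusted p = 0.0439, and 0.162 without 9425 replicate 2). Bs.00g233530.m01, Bs.00g233540.m01 and Bs.00g233570.m01 on chromosome 3 were looser, with r of 0.77 and 0.74, and Bs.00g242940.m01 and Bs.00g242950.m01 on chromosome 7, on opposite strands with 1375 bases between them, had r of 0.84. In the remaining pairs r was 0.78 (Bs.00g142570.m01 with Bs.00g142610.m01), 0.64 (Bs.00g307250.m01 with Bs.00g307280.m01) and 0.45 (Bs.00g130640.m01 with Bs.00g130680.m01). All these correlations are over the same 25 libraries, which share the difference between untreated and treated that chose the transcripts.

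Next to genes that the study describes lay 6 of the 150. Bs.00g301670.m01 lies 16166 bases before IAA15 (Bs.00g301680.m01), an Aux/IAA repressor of auxin response, on the same strand of chromosome 9. Its log2 differences in Flur-R, 9425 and J01-S were 3.27, 3.19 and 4.02 at 3 HAT and 4.32, 3.14 and 4.92 at 10 HAT, and those of IAA15 were 4.10, 4.20 and 3.95 and then 3.87, 4.09 and 3.72. Bs.00g176490.m01, one of the late ones, lies 27 bases from the AT-hook protein gene Bs.00g176480.m01 on the other strand, and that neighbour was also higher at 10 than at 3 HAT, with 2.19 and 4.19 for Flur-R, 2.57 and 7.47 for 9425, and 5.13 and 7.45 for J01-S. Bs.00g174330.m01 is next to a gene of the histidine kinase/HSP90-like ATPase superfamily (Bs.00g174320.m01) and Bs.00g431730.m01 next to a peroxidase gene (Bs.00g431740.m01). Both neighbours met the limits of the selection, as did the LEA gene beside Bs.00g357510.m01. Bs.00g430670.m01 lies 4524 bases from a gene for a protein phosphatase of type 2C (Bs.00g430680.m01), a family with members that hold back abscisic acid signalling. That neighbour did not meet the limits of the selection. For Flur-R, its log2 difference fell from 4.97 at 3 HAT to 0.74 at 10 HAT. At 10 HAT it was 4.87 for 9425 (6.93 at 3 HAT) and 4.94 for J01-S (10.47 at 3 HAT). These are means of few plants. No test between lines is given for this neighbour, which is not among the 150. The difference of Bs.00g430670.m01 itself between 9425 and J01-S at 3 HAT was -3.27 (limma adjusted p = 0.0246, and 0.162 without J01-S replicate 1).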

How the data were processed

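RNA-seq of 27 libraries, in 9 groups of line and time as labelled, was used. What the authors deposited is a score for each transcript, namely its DESeq-normalized count rounded to a whole number. Alignment was by HISAT2 (version 2.1.0 according to the submitters' processing notes), to coding sequences of kochia genome assembly version 2, and reads were assigned to features with featureCounts. The notes also list DESeq2 1.28.1, which served the authors' own tests. Raw reads per transcript could not be recovered, so tests made for raw counts were not run, and depth is known only as a library's normalized total. Positions (1-based) and strands are those of the gene models the authors deposited.

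Differences between lines were tested with limma 3.58.1 in R 4.3.3 on log2(normalized count + 1). The fit had a variance trend and 1 mean per group over 25 libraries, covered transcripts with a value of 10 or more in 2 or more libraries (28945; 16572 were not tested), and used Benjamini-Hochberg adjustment within each comparison. Differences are on that scale, which understates changes of low transcripts. The selection was run in Python 3.11.15 with pandas 2.3.3 and numpy 2.4.6. Both steps were tested on simulated data, with spread and group sizes of these libraries for limma. A transcript was named for a large or small response, high level, position at the limit, large difference between lines, a neighbour or a wide spread. The 150 transcripts, lists, rules and tests were chosen with earlier results of these data known. P-values measure the spread between plants within a group, pooled over the 9 groups. Libraries of 1 plant at different times entered the main fit as independent. The fit thus counts more independent plants than were sampled, and the precision of the pooled spread is overstated. Counts from a fit with the plant as a random effect are given below.

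Plant numbers link libraries of a line only. Deviations from group means correlated with a median of 0.65 between libraries of 1 plant and -0.01 between plants of the same number in different lines. Between plants of a line the median was -0.26. Deviations from the mean of a small group sum to 0, which makes that value negative where libraries of 1 plant correlate. Nothing is read from it.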

Additional observations from a re-analysis of the deposited data

Results flagged for a closer look

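Flur-R at 10 HAT is the only group with 4 libraries in use, and single libraries far from the other 3 were looked for in 58 named transcripts. The gap to the nearest library took up nearly the whole range (Dixon's test at 95%) in 3 of them, about what chance gives (1 in 20). Bs.00g235380.m01 was at 6747 counts in replicate 4 against 1545 to 1968 in the others. Bs.00g428810.m01 was at 1135 counts in replicate 1 against 375 to 386, and Bs.00g430670.m01 at 105 in replicate 2 against 32 to 41.

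In the left-out library labelled 9425 replicate 3, 136 of the 150 were above every untreated library, against 24.3% of all tested transcripts. In that labelled J01-S replicate 3 there were 125, against 20.9%. Both are 10 HAT libraries, and the untreated libraries were used in the selection, so these counts are not an independent check. Whether these 2 libraries carry the label of the other line was not tested beyond the shares given above.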

How the results depend on the processing

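Every difference from untreated of the 150 transcripts stayed above 0 after libraries were rescaled to the same total, which moved the median of all transcripts at 10 HAT from 0.03 to 0.45 in Flur-R, from 0.03 to 0.28 in 9425 and from 0.05 to 0.40 in J01-S. The median difference at 10 HAT of the 150 then became 3.58, 3.41 and 3.57. With 8 added before the logarithm it was 2.92, 2.88 and 3.04 at 10 HAT, and 3.04 at 3 HAT in J01-S. With 0.5 added it was 3.23 in J01-S, and with all 27 libraries 3.41 in 9425 and 3.10 in J01-S.

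Counts of transcripts called between lines moved more. With 8 added, 4, 1 and 2 were called before treatment (Flur-R against 9425, Flur-R against J01-S, 9425 against J01-S), and 7 and 12 for Flur-R against 9425 at 3 and 10 HAT. With 0.5 added, 3 were called between 9425 and J01-S at 10 HAT. Without the filter, 1 was called between untreated Flur-R and J01-S and 4 between Flur-R and 9425 at 10 HAT. With all 27 libraries, whose spread enters every comparison, the counts were 5, 1 and 1 before treatment, 0 for Flur-R against 9425 and 4 for 9425 against J01-S at 3 HAT, and 2, 1 and 0 at 10 HAT. At both counts of 0, 25 (3 HAT) and 9 (10 HAT) of the 150 were at an unadjusted p under 0.05 in limma. Fits of only the groups compared gave 1, 1 and 1 before treatment, 1, 1 and 2 at 3 HAT, and 11 for Flur-R against 9425 at 10 HAT. With the replicate number as a replicate block, which pairs different plants, 1 was called between untreated Flur-R and J01-S, and 7 and 14 between Flur-R and 9425 at 3 and 10 HAT. With the plant as a random effect, a replicate block within lines, these were 1, 7 and, for 9425 against J01-S at 10 HAT, 12. A higher filter, rescaled totals, sums by locus and a fit without the variance trend kept all 9 counts within 1.5 times.

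Leaving out each library in turn gave ranges, in the same order of comparisons, of 0 to 9, 0 to 4 and 3 to 7 before treatment, 1 to 7, 0 to 4 and 3 to 16 at 3 HAT, and 2 to 9, 0 to 4 and 1 to 8 at 10 HAT. The counts of 0 arose without untreated Flur-R replicate 2 (Flur-R against 9425) or 3 (Flur-R against J01-S) and, for Flur-R against J01-S after treatment, without J01-S replicate 4 at 3 or 10 HAT, with 22, 26, 12 and 2 of the 150 at an unadjusted p under 0.05. The median difference from untreated then ranged from 2.63 to 3.06, 2.505 to 3.05 and 3.09 to 3.61 at 3 HAT (Flur-R, 9425, J01-S) and from 2.97 to 3.28, 3.04 to 3.29 and 2.92 to 3.39 at 10 HAT, and the selection found 127 to 148 of the 150 again. It found 147 with 0.5 added, 132 with 8 added, 133 with 27 libraries, 137 after rescaling and 127 with a minimum of 100 counts. Of the single differences between lines, only 25 (up to 3 of the largest called ones per comparison) were put through every alternative. None of the 25 changed direction under any alternative, and 107 of 389 values no longer passed the test.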
